A study of Mus musculus with 2 samples.

Results

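The 36 genes described here encode aminoacyl-tRNA synthetases, the enzymes that join each amino acid to its transfer RNA. They were taken by gene symbol from the 24081 genes of the deposited read count table, and all 36 were found. Of them, 20 encode cytosolic enzymes and 16, with symbols ending in 2, encode mitochondrial enzymes. All 36 had a mean of at least 20 reads over both libraries, as did 10899 genes of the table, called expressed below. The family was chosen by gene symbol, but with the knockout over control ratios in view, and Lars2 was selected on its high ratio, so every ratio below is a description and none is a test.

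A synthetase activates its amino acid with ATP and loads it onto the matching tRNA, so that the ribosome reads each codon correctly. Mitochondria translate their own small genome with tRNAs of their own, and most amino acids therefore have separate nuclear genes for the cytosolic and the mitochondrial enzyme. Activated T cells raise protein synthesis sharply, and several cytosolic synthetase genes are targets of ATF4, the transcription factor of the amino acid response.

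The RNA came from regulatory T cells (Treg cells, CD4+ T cells that express Foxp3 and restrain immune responses) of C57BL/6 mice of 5 weeks. The control library (WT) came from Foxp3cre/wt mice with 1 floxed allele of a gene of the SUMO conjugation pathway, and the knockout library (KO) from Foxp3cre/wt mice with both alleles floxed. All mice carried the Foxp3-driven Cre recombinase. Foxp3 lies on the X chromosome, so cre/wt mice also keep Treg cells without Cre, and the sort for CD4+ YFP+ cells of lymph nodes and spleen was made to leave those out. Each library pooled cells of 5 to 10 mice, with a single library for each group. Differences below are therefore between 2 libraries without replicates, and no p was calculated. The labels give the genotype of both samples as wild type, so the direction of each difference rests on the sample titles WT and KO.

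Reads assigned to genes numbered 11662867 for WT and 23789264 for KO, so counts below are scaled before they are compared. Foxp3 had 8540 and 30579 reads. The 5 Treg markers examined summed to 4597 CPM (reads scaled to library size) in WT and 5915 in KO. One of them, Ikzf2, went the other way, with 3859 and 4706 reads, 1.59-fold lower in KO (1.52 to 1.65). Lists for CD8 T, B, myeloid, NK and erythroid cells summed to 33.6, 77.1, 418, 2.75 and 13.8 CPM in WT and to 41.5, 71.4, 386, 1.08 and 5.31 in KO. Each of these 5 lists had reads in both libraries, apart from 3 haemoglobin genes that were listed at 0. The part of other cell types in the differences below was not tested.

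Lars2, which encodes the mitochondrial leucyl-tRNA synthetase, was the single member that differed by 1.5-fold or more between the libraries. It had 5075 reads in WT and 34470 in KO, a level of 109 and 382 RPKM (reads scaled to library size and to transcript length in kilobases). The KO level was 3.51-fold higher, with an exact 95% interval for counting error of 3.41 to 3.62. Its log2 ratio of 1.81 stood at rank 17 from the highest of 10899 expressed genes. Among all expressed genes, 7.43% lay 1.5-fold or more above WT in KO and 5.51% lay 1.5-fold or more below. Among the 36 members 1 was higher and 0 lower; since the ratios were in view when the family was chosen, nothing is read from that count. At 2-fold or more these shares were 1.59% and 2.08%. Lars2 lay far beyond the 1.5-fold limit, and the member next to it, which did not reach the limit, was Vars2, the mitochondrial valyl enzyme, at a log2 ratio of 0.49.

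**Figure D1:**
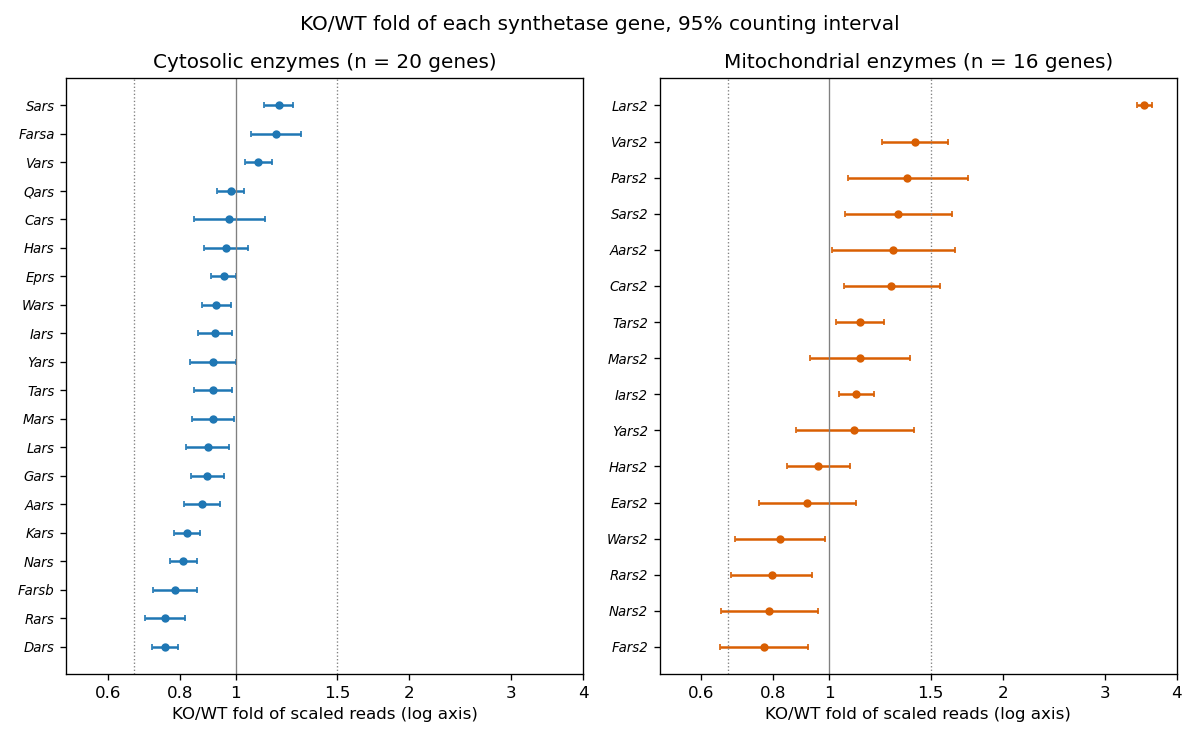
KO/WT fold of scaled reads for each of 20 cytosolic (left) and 16 mitochondrial (right) synthetase genes, on a log axis. Points are folds, bars exact 95% counting intervals, the solid line marks no difference and dotted lines mark 1.5-fold. Lars2 stands alone at 3.51, and the other 35 genes lie between the dotted lines.

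In the WT library the level of Lars2 stood apart from the other mitochondrial synthetase genes, the next being Iars2 at 17.2 RPKM, but not from the highest cytosolic ones, Dars at 99.1 and Kars at 94.2. Lars2 had the highest level per length of the 36 genes in both libraries, and it ranked 483 of 10447 expressed genes with a transcript model in WT and 125 in KO. The median of those genes was 10.5 RPKM in WT and 10.7 in KO. Lars2 alone made up 13.6% of all reads of the 36 genes in WT and 37.1% in KO, and 54.8% and 79.8% of the reads of the 16 mitochondrial genes. Its counterpart for the cytosol, Lars, had 859 and 1485 reads, and its level in KO was 16.1 RPKM.

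The Rn45s gene, the 45S ribosomal RNA precursor, moved in the same direction. It had 9832 reads in WT and 99488 in KO, 5.23-fold higher (5.13 to 5.34), at rank 5 from the highest of expressed genes. It took 0.0843% of gene reads in WT (exact interval 0.0826 to 0.0860) and 0.418% in KO (0.416 to 0.421), where Lars2 took 0.0435% (0.0423 to 0.0447) and 0.145% (0.143 to 0.146). The mRNA had been selected on beads before library preparation, and the ribosomal RNA left in each library was not measured.

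Lars2 lies on chromosome 9, 123366927 to 123462666 on the plus strand of GRCm38, and its longest transcript has 3894 bases in 21 exons, 989 of them in the 3′ UTR. In exon 21, inside that UTR, bases 123462003 to 123462099 matched a transcript of AA474408 on chromosome 7 at 94.8% identity over 97 aligned bases. Bases 123462048 to 123462119 matched Gm15564 on chromosome 16 at 98.6% over 72 bases. These were the 2 genes elsewhere in the genome that shared 50 bases or more with it at 90% identity. No member, Lars2 included, matched the GENCODE transcripts Gm26917 and Gm42418 at the locus on chromosome 17 (39843013 to 39848788), which is where the 45S precursor lies in this build. The 28S part of that precursor was not compared with Lars2, so the absence of a match does not show whether Lars2 resembles it. The counts are sums per gene and do not show which exon of Lars2 the reads came from, and the part of ribosomal RNA reads in its count was not tested.

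**Figure D2:**
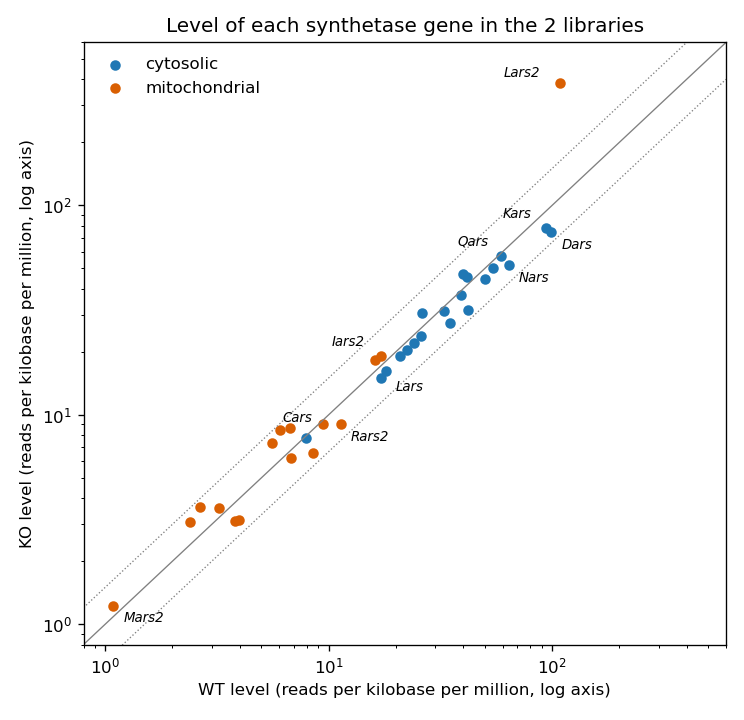
Level of each of the 36 synthetase genes in WT (horizontal) and KO (vertical), in RPKM (reads per kilobase, scaled to library size) on log axes, with cytosolic genes in blue and mitochondrial genes in orange. The solid line marks equal levels and dotted lines 1.5-fold; Lars2 lies above the band at 109 and 382, and most mitochondrial genes lie below most cytosolic ones on both axes.

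The cytosolic enzymes as a group were slightly lower in the KO library. Of 20 genes, 17 (85.0%) had a log2 ratio below 0 and 3 above it, with a median of -0.13, where 48.6% of all expressed genes were below 0 and their median was 0.01. The counting interval lay wholly below 1 for 12 genes, wholly above it for 3 and included 1 for 5. The share of all expressed genes with such intervals was not calculated, so nothing is read from these counts. The ratios ran from -0.41 for Dars to 0.25 for Sars, and none reached 1.5-fold. Summed over the 20 genes there were 28083 reads in WT and 49761 in KO, or 0.241% and 0.209% of gene reads. The median stayed below 0 under each scaling tried and with the trend on GC content and transcript length removed (-0.12), when 17 genes were again below 0.

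Within the cytosol, a group of 8 enzymes is held with 3 scaffold proteins in the multisynthetase complex. All 8 had ratios below 0, with a median of -0.15 and a range from -0.41 to -0.03, also with the GC and length trend removed (median -0.12). The 12 cytosolic genes outside the complex had a median of -0.12, with 9 below 0.

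Dars, the aspartyl enzyme of the complex, had the highest level of the cytosolic genes in WT. It had 2581 reads in WT and 3764 in KO, a level of 99.1 and 74.7 RPKM, and was 1.33-fold lower in KO (1.26 to 1.39). Rars, the arginyl enzyme, had 1060 and 1546 reads and was 1.33-fold lower (1.22 to 1.43). Kars, whose gene gives the lysyl enzyme of both the cytosol and the mitochondrion, had 2470 and 3934 reads, a level of 94.2 and 77.6, and was 1.21-fold lower (1.15 to 1.28). These 3 genes were the lowest of the complex by ratio. With the GC and length trend removed Dars, Rars and Kars had log2 ratios of -0.17, -0.25 and -0.22.

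The other 5 enzymes of the complex differed less. Lars, the leucyl enzyme, was 1.12-fold lower (1.03 to 1.22). Mars, the methionyl enzyme, had 852 and 1504 reads and was 1.10-fold lower (1.01 to 1.19), and Iars, the isoleucyl enzyme, had 1367 and 2434 and was 1.09-fold lower (1.02 to 1.16). Eprs, which carries the glutamyl and prolyl activities on a single chain, had 2301 and 4240 reads, and Qars, the glutaminyl enzyme, had 1972 and 3737 at a level of 58.8 and 57.6. The intervals of Eprs and Qars included no difference, with folds of 1.05 (0.997 to 1.10) and 1.02 (0.966 to 1.08) lower. Iars shares a coding stretch of 1656 aligned bases at 96.0% identity with the processed pseudogene Gm4849 on chromosome 1, so its count is less certain. By the limits of 50 bases and 90% identity, Iars matched 224 other genes elsewhere, Tars 349, Wars2 241, Tars2 26 and Mars2 3. Apart from Iars, the longest match of each lay in the 3′ UTR. The part of such matches in the counts was not tested. Mars exons overlap those of Ddit3 on the opposite strand by 68 bases.

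Of the scaffold genes, Aimp1 had 472 and 886 reads, Aimp2 203 and 349, and Eef1e1, which encodes the scaffold protein also called AIMP3, 317 and 409. Eef1e1 was lower in KO with an interval of 1.29-fold to 1.74-fold, and its log2 ratio of -0.58 just missed the 1.5-fold limit. It was at -0.41 with the GC and length trend removed. The ratios of Aimp1 and Aimp2 were -0.04 and -0.17, and with that trend removed 0.01 and -0.24.

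Among free cytosolic enzymes the 2 chains of a single enzyme went opposite ways. The phenylalanyl enzyme is built from an alpha chain, Farsa, and a beta chain, Farsb. Farsa had 573 reads in WT and 1300 in KO and was 1.17-fold higher (1.06 to 1.30), while Farsb had 852 and 1292 and was 1.28-fold lower (1.17 to 1.39). Their transcripts have a GC content of 56.6% and 46.3%, and with the GC and length trend removed their log2 ratios were 0.08 and -0.19. Farsb shares 248 exonic bases with Sgpp2 on the opposite strand.

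Sars and Vars were the other genes higher in KO. Sars, the seryl enzyme, had 1700 and 3900 reads and was 1.19-fold higher (1.12 to 1.26), with a log2 ratio of 0.21 after the GC and length trend was removed. Vars, the valyl enzyme, had 2067 and 4376 reads, 1.09-fold higher (1.04 to 1.15). The direction of Vars turned with that step, to a log2 ratio of -0.28. Its transcript had the highest GC content of the 36, at 60.9%.

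The remaining free enzymes were level or slightly lower. Nars, the asparaginyl enzyme, had 2100 and 3296 reads, a level of 63.9 and 51.8, and was 1.23-fold lower (1.17 to 1.30). Aars, the alanyl enzyme, had 1184 and 2003 reads and was 1.14-fold lower (1.06 to 1.23), and it was the lowest cytosolic gene with the GC and length trend removed (-0.45). Its exons share 1326 bases with Exosc6 on the same strand, which makes its count uncertain. Gars, the glycyl enzyme of both compartments, had 1425 and 2458 reads and was 1.12-fold lower (1.05 to 1.20).

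Tars, the threonyl enzyme, had 1071 and 1893 reads and was 1.09-fold lower (1.01 to 1.18). Wars, the tryptophanyl enzyme that interferon-gamma is known to induce, had 1837 and 3290 reads and was 1.08-fold lower (1.02 to 1.14). For Yars, Hars and Cars, the tyrosyl, histidyl and cysteinyl enzymes, the interval included no difference. They had 725 and 1282, 781 and 1450, and 306 and 577 reads. Cars had the lowest level of the cytosolic genes, at 7.93 and 7.73 RPKM. The direction of Hars turned with the GC and length trend removed (-0.06 to 0.04).

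The mitochondrial enzymes were split. Of 16 genes, 10 (62.5%) had a log2 ratio above 0 and 6 below it. Without Lars2 the share above 0 was 60.0%, and among all expressed genes it was 51.4%. The median of the 16 genes was 0.17, or 0.16 without Lars2. The counting interval lay wholly above 1 for 8 genes, wholly below it for 4 and included 1 for 4. Here too the share of all expressed genes was not calculated, and nothing is read from these counts. The summed reads of the 16 genes went from 0.0794% of gene reads in WT to 0.181% in KO. Without Lars2 they went from 0.0359% to 0.0366%, so that nearly all of the difference in the sum was that of Lars2. With the GC and length trend removed the median was 0.12 and 11 genes were above 0. Reads per gene were fewer than in the cytosolic group, with a median of 190.5 in WT against 1275.5, so intervals were wider.

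Among the higher genes after Lars2, Vars2 had 320 reads in WT and 870 in KO and was 1.41-fold higher (1.24 to 1.60). Pars2, the prolyl enzyme, had 97 and 256 reads and was 1.36-fold higher (1.08 to 1.74). Sars2, the seryl enzyme, had 125 and 318 reads and was 1.32-fold higher (1.07 to 1.63). The GC and length trend, when removed, left Pars2 at 0.47 on the log2 scale and took Vars2 and Sars2 to 0.17 and 0.08. Vars2 exons overlap those of the antisense gene Gm20483 by 465 bases, and the strand setting of the counting is unknown here.

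Aars2, the alanyl enzyme, had 96 and 239 reads and was 1.29-fold higher (1.01 to 1.65), and Cars2, the cysteinyl enzyme, had 153 and 379 and was 1.28-fold higher (1.06 to 1.56). Aars2 was at 0.00 on the log2 scale with the GC and length trend removed, and Cars2 at 0.24. Iars2 and Tars2, the isoleucyl and threonyl enzymes, followed Lars2 in level. Iars2 had 1128 and 2432 reads, a level of 17.2 and 19.2, and was 1.12-fold higher (1.04 to 1.20). Tars2 had 622 and 1361 reads, a level of 16.1 and 18.2, and was 1.13-fold higher (1.03 to 1.25). Iars2 shares 2034 exonic bases with Rab3gap2 on the opposite strand, and Cars2 shares 422 with Naxd, also on the opposite strand.

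On the lower side, Fars2, the phenylalanyl enzyme, had 216 reads in WT and 322 in KO and was 1.30-fold lower (1.09 to 1.55). Nars2, the asparaginyl enzyme, had 180 and 274 reads and was 1.27-fold lower (1.05 to 1.54), and Rars2, the arginyl enzyme, had 253 and 389 reads, a level of 11.3 and 8.99, and was 1.26-fold lower (1.07 to 1.48). Wars2, the tryptophanyl enzyme, had 201 and 319 reads and was 1.22-fold lower (1.02 to 1.46). All 4 were below 0 with the GC and length trend removed as well, Fars2 at -0.54. On the opposite strand, Fars2 shares 501 exonic bases with Nrn1 and 115 with Lyrm4, and Nars2 shares 284 with C230038L03Rik.

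For the other 4 mitochondrial genes the interval included no difference. Hars2 had 377 and 698 reads, Ears2 166 and 294, Mars2 147 and 321, and Yars2 109 and 233; they encode the histidyl, glutamyl, methionyl and tyrosyl enzymes. Hars2 and Hars lie head to head on chromosome 18 and share 195 exonic bases on opposite strands. Mars2 had the lowest level of all 36 genes, 1.09 and 1.23 RPKM, over a transcript model of 11294 bases in a single exon.

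Set side by side by amino acid, the mitochondrial enzyme had the higher KO/WT ratio in 11 of 16 pairs. Eprs stands in both the glutamate and the proline pair, and the mean of Farsa and Farsb was used for phenylalanine. The median difference, mitochondrial minus cytosolic, was 0.27 on the log2 scale, with and without leucine. It ran from -0.31 for phenylalanine to 1.97 for leucine, followed by alanine (0.56), proline (0.52) and cysteine (0.39). For histidine both ratios were -0.06. With the GC and length trend removed the mitochondrial ratio was higher in 10 pairs and the median difference was 0.28. The pairs come from the same 2 libraries, so they are not replicates of one another.

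**Figure D3:**
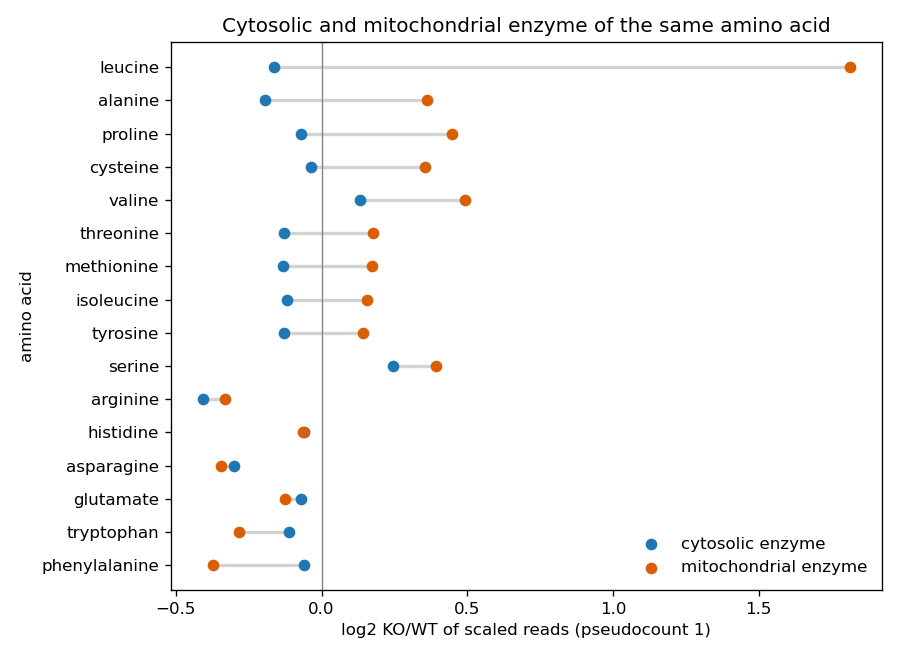
log2 KO/WT ratio of the cytosolic (blue) and the mitochondrial (orange) enzyme for each of 16 amino acids, sorted by their difference. Leucine stands apart at the top with a difference of 1.97, and phenylalanine lies lowest at -0.31.

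In level per length, the cytosolic enzyme exceeded the mitochondrial one for all amino acids of the WT library but leucine. The median of the cytosolic over the mitochondrial level was 6.10-fold in WT and 5.09-fold in KO. It was widest for methionine, 22.1-fold and 17.9-fold, a value that depends on the long transcript model of Mars2. Leucine was reversed, with the level of Lars2 6.04-fold that of Lars in WT and 23.7-fold in KO. In KO Cars2 also lay slightly above Cars, at 8.60 against 7.73 RPKM.

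Synthetases fall into 2 unrelated structural classes with different catalytic folds. The 18 class I genes had a median log2 ratio of -0.07 and the 17 class II genes one of -0.13, Eprs belonging to both. With the GC and length trend removed the medians were -0.08 and -0.03, so their order turned.

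The ratio rose with GC content among the members. The Spearman correlation between the log2 ratio and transcript GC content was 0.64 over the 20 cytosolic genes and 0.48 over the 16 mitochondrial genes, all points sharing the same 2 libraries. Over all expressed genes with a model the same trend was present, and with it removed the values were -0.02 and -0.14. The groups did not differ much in GC content, with medians of 50.9% and 49.7%. Lars2, at 51.2%, had a log2 ratio of 1.83 with the trend removed.

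The amino acid response offers a further grouping. The 11 cytosolic genes commonly listed as ATF4 targets (Aars, Cars, Eprs, Gars, Iars, Mars, Nars, Sars, Tars, Wars and Yars) had a median of -0.13, with 10 below 0, and the 9 other cytosolic genes had a median of -0.16, with 7 below 0. Promoter sequence was examined for the element that ATF4 binds with C/EBP proteins, searched as TGATGNAA on both strands. RefSeq windows of 300 bases (GRCm38.p6, 250 before to 50 after the start) were matched for 26 of the 36 genes. The letters occurred in 5 of 12 cytosolic windows, those of Aars, Gars, Iars, Tars and Yars, and in 0 of 14 mitochondrial ones, against 2.72% of 8386 expressed genes with a window and 4.51% of all 27025. A match is shown for each of the 5 genes because all are on the ATF4 list; capitals mark the match, read on the strand of the gene, where TTGCATCA and TTTCATCA are the element on the other strand.
Aars, chr8:111033840-111033869, plus strand: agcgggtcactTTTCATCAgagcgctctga
Gars, chr6:55037960-55037989, plus strand: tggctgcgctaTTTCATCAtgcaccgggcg
Iars, chr13:49682126-49682155, plus strand: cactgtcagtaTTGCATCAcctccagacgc
Tars, chr15:11399655-11399684, minus strand: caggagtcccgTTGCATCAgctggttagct
Yars, chr4:129189895-129189924, plus strand: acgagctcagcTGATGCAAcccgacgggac
The 5 genes with the letters had log2 ratios of -0.19, -0.16, -0.12, -0.13 and -0.13 in the order Aars, Gars, Iars, Tars and Yars. These lie within the range of the other cytosolic genes. A match is a run of letters in this window, not a measured site. The consensus motif of the nuclear respiratory factor NRF1 was in 0 of 26 windows (2.59% of expressed genes), and ACTTCCGG, of ETS factors, was in those of Farsa and Rars2 (10.0% of expressed genes).

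The response itself gave no common direction. Of 25 listed genes of the amino acid response 20 were expressed, 1 of them at least 1.5-fold higher in KO (5.00%, against 7.43% of all expressed genes), 1 at least 1.5-fold lower (5.00%, against 5.51%) and 18 between, with a median of 0.09 (0.01 with the GC and length trend removed). Atf4 had 1253 and 2865 reads and was 1.18-fold higher (1.11 to 1.26). The genes past the limit rested on few reads. Asns, the asparagine synthetase, had 21 and 19 reads and was 2.14-fold lower (1.09 to 4.20), and Atf3, a stress-induced transcription factor, had 10 and 33 with an interval that included no difference (0.822 to 3.88).

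Partners of the synthetases in translation all lay within 1.5-fold, apart from ribosomal proteins. The 9 mitochondrial translation factors were slightly lower in KO, with a median of -0.24. Of them 8 were below 0 (88.9%, against 48.6% of all expressed genes). With the GC and length trend removed the median was -0.16 and 6 were below 0 (66.7%, against 47.2%). The initiation factor Mtif3 had 161 and 219 reads and was 1.42-fold lower (1.15 to 1.75). The 5 cytosolic elongation factor genes had a median of -0.06, the 4 proofreading genes one of 0.13 and the 4 measured genes of tRNA amidation and formylation in mitochondria one of -0.11. Eef1g, a subunit of the cytosolic elongation factor, had 9633 and 14432 reads and was 1.29-fold lower (1.26 to 1.32).

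Some mitochondrial ribosomal protein genes passed the limit. Of 77 genes 8 lay 1.5-fold or more higher in KO (10.4%, against 7.43% of all expressed genes), 0 lower (against 5.51%) and 69 between, with a median of 0.02. Mrpl52 had 65 and 297 reads and was 2.36-fold higher (1.80 to 3.14), Mrpl53 had 23 and 88 and was 1.98-fold higher (1.24 to 3.28), Mrpl20 had 104 and 344 and was 1.71-fold higher (1.37 to 2.15), and Mrps14 had 118 and 383 and was 1.68-fold higher (1.36 to 2.08). With the GC and length trend removed 4 of the 77 genes were higher and 2 lower. Among the 10447 genes used to fit that trend, 482 then passed the limit upward and 547 downward. Mrpl52 and Mrpl20 were at 0.56 and 0.55 on the log2 scale after that step, under 1.5-fold.

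**Figure D4:**
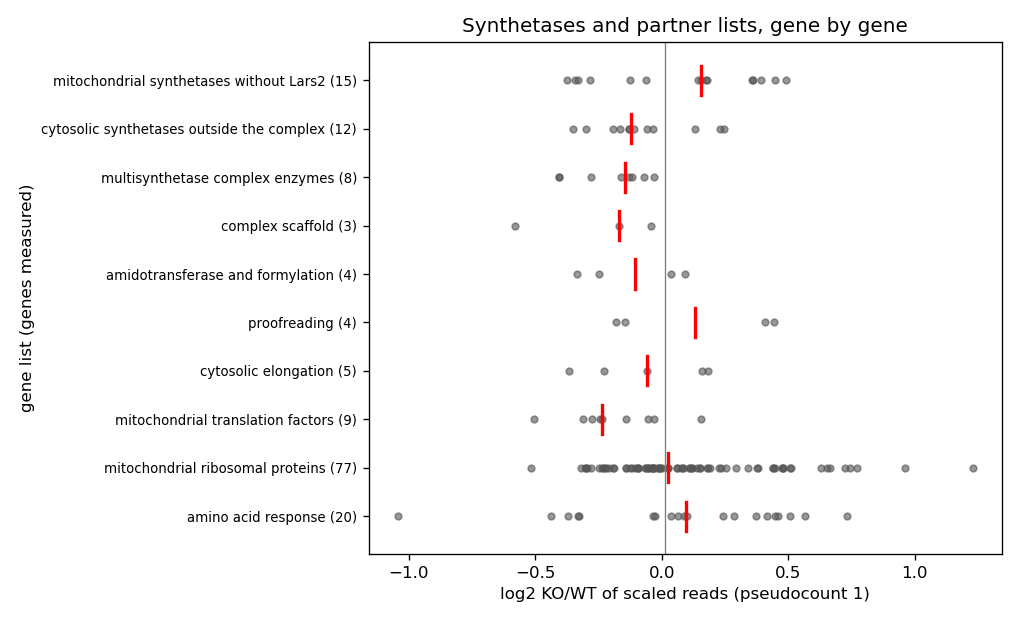
log2 KO/WT ratio of every measured gene (points) in the synthetase groups without Lars2 and in partner lists, with the number of genes in brackets. Red bars are list medians and the grey line the median of all expressed genes (0.01). The 8 complex enzymes and the 3 scaffold genes all lie to the left of 0, though Aimp1 turns to 0.01 with the GC and length trend removed.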

How the data were processed

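The authors deposited raw read counts per gene symbol for 2 libraries, whole numbers that were not normalized. TopHat2 2.0.3, HTSeq and the build mm10 are named in the submitters' processing notes; the annotation and the strand setting are unknown here. The 5 counter categories were left out: 76.6% of counted reads were assigned to genes in both libraries. Reads aligned to several places were 15.6% (WT) and 15.0% (KO).

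Counts were scaled with TMM factors of edgeR 4.0.16 (1.03 and 0.974), also for CPM and RPKM levels. The log2 ratio of KO over WT used a pseudocount of 1; folds and exact conditional binomial (Clopper-Pearson) 95% intervals used none. Intervals cover counting error only, reads not being independent molecules. No test was run, each group having 1 library. Genes needed a mean of at least 20 reads. Transcript length and GC content came from the longest GENCODE M21 transcript (GRCm38), and similar stretches from BLAST+ 2.17.0. A smooth trend of the ratio on GC and length was fitted with mgcv 1.9.3 in R 4.3.3 over 10447 of 10899 expressed genes; the Spearman correlation of ratio and GC content was 0.43. DESeq2 1.42.0 size factors, total-count scaling, pseudocounts of 0.5 and 5, and minimums of 100 reads and of 1 read were alternatives. The ratio and interval code was tested on simulated data.

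The members and gene lists were chosen with earlier results of these data known. The naming rule gave full values to members at least 1.5-fold different and to the 4 cytosolic and 4 mitochondrial genes highest per length in WT, and to at most 4 genes at least 1.5-fold different per partner list; other members are named with their reads. Partner genes within 1.5-fold, and Ikzf2, were named after their values were seen. The targeted gene and some other items are not reported here.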

Additional observations from a re-analysis of the deposited data

How the results depend on the processing

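Lars2 was the single member at least 1.5-fold higher, and 0 were lower, with DESeq2 size factors, total-count scaling, pseudocounts of 0.5 and 5, minimums of 100 reads and 1 read, and the GC and length trend removed; its log2 ratio ran from 1.74 (total counts) to 1.83 (trend removed). Leaving it out, a step chosen after seeing the data, gave 0 higher. The cytosolic median ran from -0.21 (total counts) to -0.12 and the mitochondrial median from 0.09 (total counts) to 0.17, while total counts moved the median of all expressed genes to -0.06. The median difference by amino acid ran from 0.27 to 0.28. The summed reads of the 36 genes took 1.22-fold the share in KO, also without the 10 most counted genes and Rn45s, and 0.888-fold without Lars2. Removing the trend moved 10 of 36 members outside their counting interval and turned Hars, Hars2 and Vars; total counts moved 5 and turned 0. No paired analysis was possible because each group has 1 library. Differences between mice cannot be seen at 1 pooled library per group, and counting intervals of the mitochondrial genes with about 100 reads in WT leave folds near 1.3 poorly resolved.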
